A study of Rattus norvegicus with 63 samples.

Results

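The earliest time sampled in a course of rat kidney after methylprednisolone, 0.25 h after the injection, was set against untreated rats, labelled 0 h. The comparison used 3 arrays at 0.25 h and 4 arrays at 0 h, which are 7 of the 63 samples of the series, and was chosen as all arrays of the main type whose titles carry these times. Each sample was total RNA of rat kidney, measured with short probes that are grouped into a probe set for each transcript. The other arrays cover later times up to 72 h, and those of 0.5, 0.75 and 1 h are shown here only where they follow the same genes. The labels name no dose, strain, age, sex or hour of day, and they do not say whether numbered samples came from separate animals, so a p-value here reflects only how far such samples spread, which may be technical variation. The 0 h rats are labelled as having had no treatment at all, and no vehicle-injected group is among the samples used here, so effects of the injection itself and of methylprednisolone cannot be told apart.

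Methylprednisolone is a synthetic glucocorticoid. It enters cells and binds the glucocorticoid receptor, which moves to the nucleus, binds DNA at glucocorticoid response elements and raises transcription of target genes within minutes, while it restrains inflammatory genes driven by NF-kappaB and AP-1. In the kidney the receptor is found along the whole nephron, and early steroid targets such as Sgk1 are known for their part in sodium transport. Immediate early genes, which need no new protein to be transcribed, respond to stress, cytokines and growth factors on a similar time scale.

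The values are scaled intensities, in arbitrary units, and the tests used log2(intensity + 7.63), so that folds of dim probe sets are understated. Of 9520 probe sets bright enough to test, 7 (0.0735%) were higher at 0.25 h than at 0 h and 0 (0%) were lower at an adjusted p under 0.05 (limma, Benjamini-Hochberg over all 9520). Without adjustment 663 (6.96%) had a p under 0.05, of which 314 (3.3%) were higher and 349 (3.67%) lower. All 3 arrays at 0.25 h lay above all 4 at 0 h for 310 probe sets (3.26%) and below all 4 for 347 (3.64%). The median difference over all tested probe sets was -0.02. The 7 probe sets name 6 genes, Nfkbia, Zfp36, Sgk1, Depp1, Ccn2 and Errfi1, and 1 probe set, 1367960_at, has no symbol listed. In whole tissue, more cells of a type and more RNA per cell cannot be told apart.

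**Figure D1:**
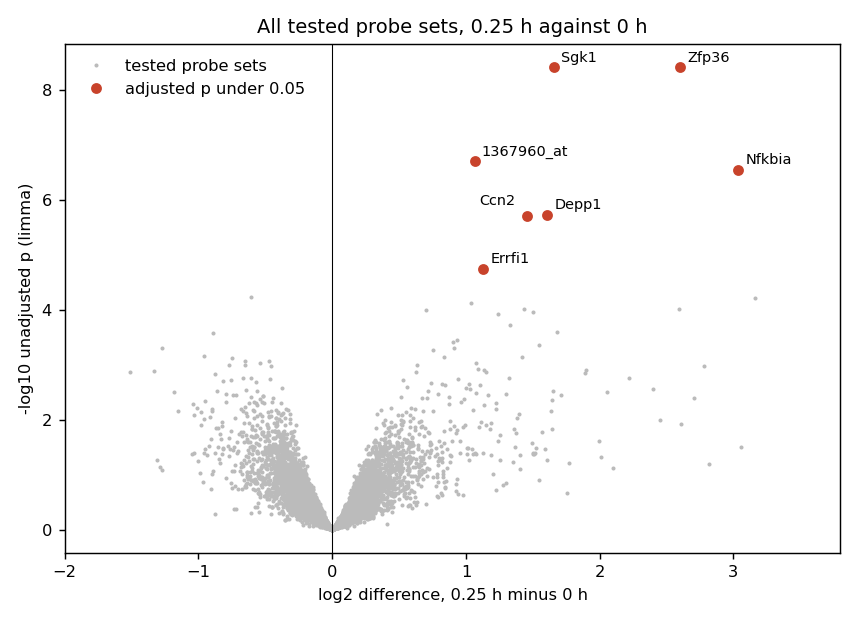
Difference of each tested probe set (x axis, log2 difference of 0.25 h minus 0 h) against its unadjusted p from limma (y axis, -log10). Red points are the 7 probe sets with an adjusted p under 0.05, all to the right of 0, and grey points are the others of the 9520.

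Nfkbia encodes the inhibitor that holds NF-kappaB in the cytoplasm, and it had the largest rise of the 7. Its intensity was 260, 951 and 361 at 0.25 h, against 35.7, 64.5, 31.7 and 70.1 at 0 h. The dimmest array at 0.25 h was several times above the brightest at 0 h. The log2 difference was 3.04 ± 0.49 (SE), an 8.2-fold rise, with an adjusted p of 0.000664 (limma), and the SD within the groups was 0.96 log2 units at 0.25 h (n = 3) and 0.50 at 0 h (n = 4). Zfp36 encodes tristetraprolin, which binds AU-rich elements and speeds the decay of cytokine mRNAs. Its intensity was 806, 1698 and 1046 at 0.25 h, against 148, 218, 165 and 195 at 0 h. The groups were far apart, with replicate 2 highest at both times. The log2 difference was 2.60 ± 0.35, a 6.07-fold rise (adjusted p 1.84e-05), with SDs of 0.54 at 0.25 h and 0.24 at 0 h.

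The promoters of these 2 genes with the largest rises are printed here, since the proximal DNA is where an early factor could act. Both come from RefSeq windows of GRCr8, each 300 bases long and reaching a short way past the gene start, read on the gene's own strand, here the minus strand: chr6:78597023-78597322 for Nfkbia and chr1:92799059-92799358 for Zfp36. Capitals mark the NF-kappaB core GGGANTTTC, found in either orientation.
Nfkbia: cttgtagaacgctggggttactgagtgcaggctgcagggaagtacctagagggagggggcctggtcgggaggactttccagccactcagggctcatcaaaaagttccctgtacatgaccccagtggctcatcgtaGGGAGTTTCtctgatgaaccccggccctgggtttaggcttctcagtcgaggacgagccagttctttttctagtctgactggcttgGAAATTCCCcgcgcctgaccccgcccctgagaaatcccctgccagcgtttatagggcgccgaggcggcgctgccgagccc
Zfp36: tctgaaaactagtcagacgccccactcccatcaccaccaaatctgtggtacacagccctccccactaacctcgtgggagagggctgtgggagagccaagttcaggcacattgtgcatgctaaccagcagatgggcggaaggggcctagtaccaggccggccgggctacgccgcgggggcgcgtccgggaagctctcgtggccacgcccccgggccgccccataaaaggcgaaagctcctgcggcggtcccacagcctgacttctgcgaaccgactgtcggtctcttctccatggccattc
The Nfkbia window holds 2 copies of this core, which 1.15% of 33469 such rat promoter windows hold, and none of the other motifs searched. The Zfp36 window holds none of the motifs searched on both strands. These were the NF-kappaB core, the glucocorticoid receptor core AGAACA (20.7% of all windows), the full palindromic glucocorticoid response element (0.0329%), the cyclic AMP response element TGACGTCA (1.83%) and its shorter, overlapping form TGACG (21.2%), the serum response element cores CCATATAAG (0.14%) and CCATATTAG (0.0956%), the C/EBP site TTGCGCAA (0.17%) and the STAT site TTCCNGGAA (1.27%). The single windows of Depp1 and Ccn2 and the 3 windows of Sgk1 hold none of them either, and that of Errfi1 holds 1 copy of TGACG. These are matches of letters within 300 bases and say nothing of binding elsewhere.

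Sgk1 encodes a kinase that increases sodium channels at the surface of distal nephron cells and is a classical target of corticosteroids. Its intensity was 1031, 1425 and 2652 at 0.25 h, against 473, 429, 403 and 720 at 0 h. Every array at 0.25 h was above every array at 0 h, and replicate 3 was highest. The difference was 1.66 ± 0.22 log2 units, a 3.16-fold rise (adjusted p 1.84e-05). Errfi1 encodes an inhibitor of the epidermal growth factor receptor. It had 1153, 1648 and 2136 at 0.25 h, against 815, 974, 502 and 691 at 0 h, a difference of 1.13 ± 0.23 or 2.19-fold (adjusted p 0.0241). Here the lowest treated and the highest untreated array were close to each other.

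Ccn2 encodes connective tissue growth factor, a secreted matrix-associated protein. It had intensities of 927, 612 and 1851 at 0.25 h, against 235, 401, 382 and 500 at 0 h, a difference of 1.45 ± 0.26 (2.74-fold, adjusted p 0.00309). Replicate 3 was again highest and replicate 2 lay only a little above the brightest untreated array. Depp1, known from human cells as a FOXO target linked to autophagy, had 349, 531 and 585 at 0.25 h, against 168, 122, 177 and 144 at 0 h. Its difference was 1.61 ± 0.29 (3.05-fold, adjusted p 0.00309), with a clear gap between the groups. The unnamed probe set 1367960_at had 170, 178 and 140 at 0.25 h, against 78.7, 88.5, 53.6 and 77.0 at 0 h. It rose 2.09-fold (1.06 ± 0.17, adjusted p 0.000617), and its treated arrays were the most even of the 7 probe sets, with an SD of 0.18 log2 units.

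**Figure D2:**
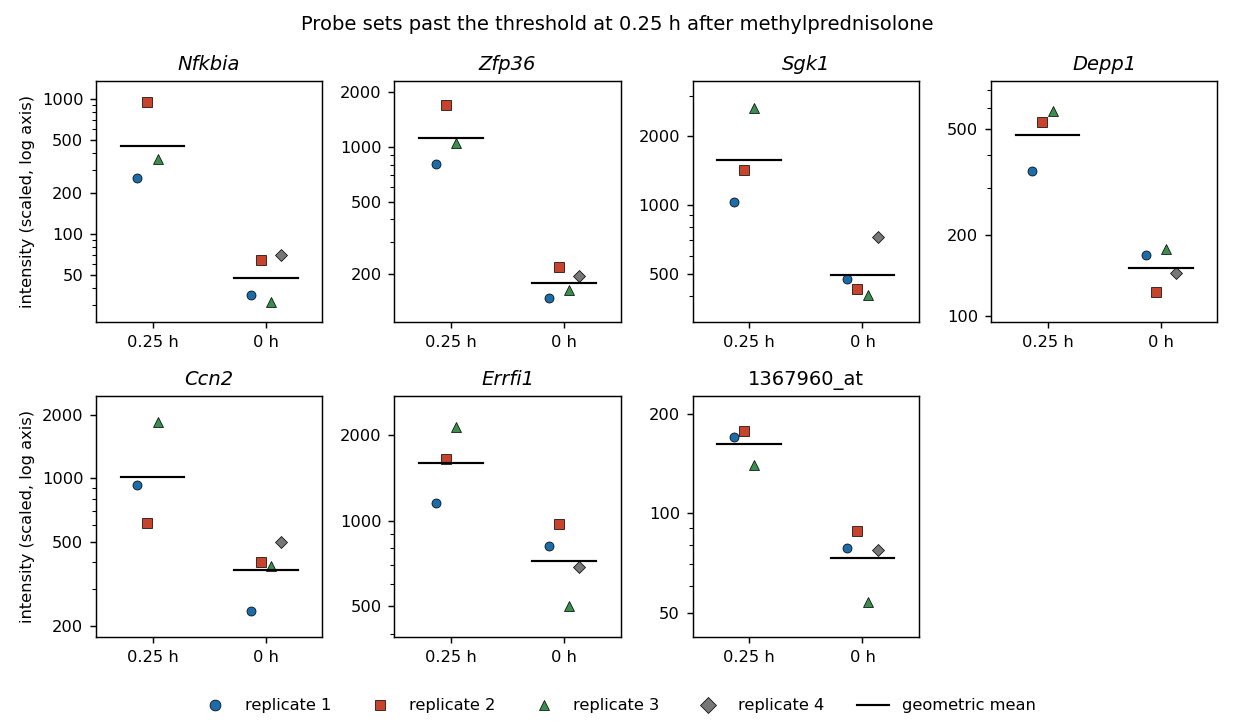
Intensity (y axis, log scale, arbitrary scaled units) of the 7 probe sets in each array at 0.25 h (left, 3 arrays) and at 0 h (right, 4 arrays); colours and shapes give the replicate number and lines the geometric mean. In every panel the arrays at 0.25 h lie above those at 0 h, and the highest array is replicate 2 for Nfkbia and Zfp36 and replicate 3 for Sgk1, Depp1, Ccn2 and Errfi1.

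The calls rest on a spread estimated over all 52 libraries of the main array type. With only the 7 arrays of both groups 1 call remained, Zfp36, while Ccn2 also lost its call without 0.25 h replicate 3, and Errfi1 without 0.25 h replicate 2 or 3, without 0 h replicate 3 or 4, and with array weights. The number higher was 15 without 0.25 h replicate 1 and 24 without replicate 3, the number lower was 13 without replicate 1, 2 without replicate 2 and 1 without replicate 3 or 0 h replicate 4, and with 48 and 72 h in place of 0 h there were 21 higher and 10 lower.

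Several genes lay just beyond the threshold and were picked for mention after their values were seen. Dusp1, a phosphatase that switches off MAP kinases, had 294, 719 and 230 at 0.25 h, against 99.5, 173, 124 and 134 at 0 h (1.44 ± 0.33, adjusted p 0.0733). Slc25a25, a mitochondrial ATP-Mg carrier, had 206, 688 and 352 at 0.25 h, against 167, 63.3, 18.2 and 39.7 at 0 h (2.59 ± 0.60, adjusted p 0.0733). Nr4a1, an immediate early nuclear receptor, had 197, 748 and 152 at 0.25 h, against 70.0, 125, 107 and 88.9 at 0 h (1.5 ± 0.35, adjusted p 0.0733). In each of these 3 genes all treated arrays lay above all untreated ones, as in 3.17% of all genes, and replicate 2 was highest. Smad6, an inhibitor of bone morphogenetic protein signalling, differed by 1.04 (adjusted p 0.072). A probe set of Il6st, the gp130 receptor subunit, differed by 1.24 (adjusted p 0.0762), and its 2 other tested probe sets by 0.87 and 0.31. The smallest adjusted p among lower probe sets was 0.0631 for a probe set of Synj2bp, a mitochondrial outer membrane protein, with 352, 249 and 202 at 0.25 h, against 424, 387, 445 and 354 at 0 h, a difference of -0.61. The other 3 tested probe sets of Synj2bp differed by -0.31, -0.20 and -0.09.

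Genes known to be induced by glucocorticoids in various tissues were listed with earlier results of these data known. The counts given here are therefore a description and no independent support. Of the 44 symbols listed, 36 had a tested probe set, and Gilz, which had none, is another name for Tsc22d3, also listed. Of the 36, 4 rose (Nfkbia, Zfp36, Sgk1 and Errfi1) and 0 fell, where 6 of the 7106 genes tested (0.0844%) rose. The same 4 calls are counted again in other lists below. In 12 of the 36 all arrays at 0.25 h lay above all at 0 h, against 3.17% of all genes, and in 1 they lay below, against 3.91%. The median difference of the list was 0.56, against -0.03 over all genes. Of the 36, 19 were highest in replicate 2 and 13 in replicate 3 of the treated arrays, where 27.5% and 41.1% of all genes were. Rasd1, a small GTPase named for its induction by dexamethasone, had 97.6, 409 and 60.6 at 0.25 h, against 27.4, 5.06, 9.94 and 17.2 at 0 h (2.78 ± 0.79, adjusted p 0.272). Cebpb, a transcription factor of the acute phase, had 129, 703 and 120 at 0.25 h, against 11.8, 61.3, 50.6 and 71.0 at 0 h (2.22 ± 0.66, adjusted p 0.332). Both genes separated the groups without passing the test. Angptl4, an inhibitor of lipoprotein lipase, had 414, 1434 and 46.6 at 0.25 h, against 171, 30.3, 42.2 and 27.5 at 0 h, and its groups overlapped (2.45 ± 0.91, adjusted p 0.574).

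Further glucocorticoid targets were taken up because they are widely used as markers of the response, after their values had been seen. Fkbp5, a chaperone partner of the receptor, had 49.9, 63.3 and 102.6 at 0.25 h, against 49.0, 59.8, 69.3 and 39.5 at 0 h (0.33 ± 0.22, adjusted p 0.852). Tsc22d3, which encodes the glucocorticoid-induced leucine zipper protein, had 315, 333 and 684 at 0.25 h, against 297, 318, 205 and 347 at 0 h (0.53 ± 0.20, adjusted p 0.585). In both genes replicates 1 and 2 lay within the untreated range and replicate 3 above it. Cebpd had 118, 652 and 124 in its brighter probe set at 0.25 h, against 75.9, 76.6, 44.1 and 61.7 at 0 h (1.65 ± 0.55, adjusted p 0.45), and its dimmer probe set differed by 3.16 (adjusted p 0.0631).

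The 6 named genes were followed over the first hour. Nfkbia was 1169, 1362 and 1209 at 0.5 h and 525 to 894 at 0.75 h, so that the treated arrays of 0.25 h lay below those of 0.5 h. Zfp36 was 1532 to 2088 at 0.5 h and 996 to 1026 at 0.75 h, and its arrays at 0.25 h spanned from below the range of 0.75 h into that of 0.5 h. Sgk1 was 1599 to 2644 at 0.5 h and 2598 to 2876 at 0.75 h, and replicate 3 of 0.25 h lay within the range of 0.75 h. Depp1 was 859 to 1738 at 0.5 h and 576 to 996 at 0.75 h, and its arrays at 0.25 h lay below all of 0.5 h. Ccn2 was 1330 to 1724 at 0.5 h and 2542 to 2667 at 0.75 h, and replicate 3 of 0.25 h lay between these ranges while the others lay below both. Errfi1 was 1659 to 2733 at 0.5 h and 2056 to 2468 at 0.75 h, and replicate 3 of 0.25 h was within both ranges. Fkbp5 was 52.2 to 70.8 at 0.5 h and 134 to 186 at 1 h, and Tsc22d3 was 711 to 776 at 0.5 h and 1030 to 1137 at 1 h. For Tsc22d3 the range at 0.5 h was wholly above that at 0 h, while for Fkbp5 those at 0.5 h and 0 h overlapped.

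**Figure D3:**
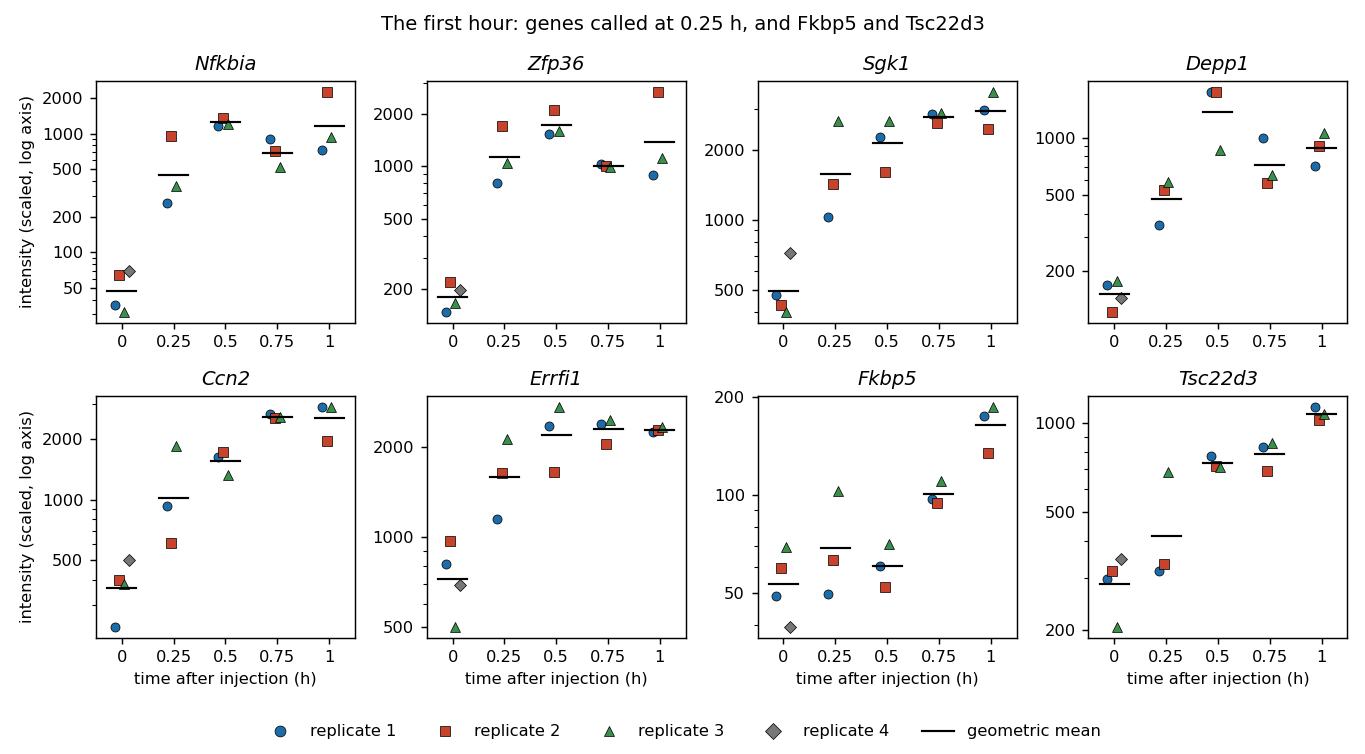
Intensity (y axis, log scale, arbitrary scaled units) of the 6 named genes and of Fkbp5 and Tsc22d3 against time after injection (x axis, h), with 4 arrays at 0 h and 3 at each later time; lines are geometric means. Nfkbia and Zfp36 have their highest mean at 0.5 h, and Fkbp5 and Tsc22d3 at 1 h, at 134 to 186 and 1030 to 1137.

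Set directly against 0.5 h, the arrays of 0.25 h had 4 probe sets lower (0.042% of 9520) and 0 higher (0%) at an adjusted p under 0.05, and 469 (4.93%) at an unadjusted p under 0.05. The same arrays of 0.25 h enter here, so this is no independent check of the differences from 0 h. Depp1 was 349, 531 and 585 at 0.25 h, against 1729, 1738 and 859 at 0.5 h, a difference of -1.51 ± 0.31 (adjusted p 0.0494). Cd83, an immunoglobulin-family protein of activated immune cells, had 155, 148 and 96.7 at 0.25 h, against 319, 340 and 225 at 0.5 h (-1.11 ± 0.23). The differences were -1.05 ± 0.20 for Edn1, which encodes the vasoconstrictor endothelin-1, and -0.84 ± 0.17 for Chordc1, a cochaperone of HSP90, each with an adjusted p of 0.0494 as for Cd83. Cd83, Edn1 and Chordc1 had differed from 0 h at 0.25 h by 0.13, 0.19 and -0.18 with no adjusted p under 0.9. None of these 4 calls was made with the replicate numbers as a block, without a filter, with a pseudocount of 1, with the arrays of both groups only, without 0.25 h replicate 1 or 2, or without 0.5 h replicate 1 or 2.

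The 3 arrays at 0.25 h were less alike than the untreated ones. The log2 values of pairs of arrays correlated with r of 0.884 to 0.930 at 0.25 h, against 0.944 to 0.971 at 0 h, across probe sets, which are not independent. The median SD of a probe set was 0.26 log2 units at 0.25 h (n = 3), against 0.19 at 0 h (n = 4). More than 1 log2 unit above both other arrays were 29 probe sets in replicate 1 (0.305%), 134 in replicate 2 (1.41%) and 75 in replicate 3 (0.788%), and more than 1 unit below both were 39 (0.41%), 43 (0.452%) and 236 (2.48%). At 0 h from 2 to 7 probe sets of an array lay more than 1 unit above all 3 others and from 9 to 69 below, counts that are lower by construction because an array has 3 others to pass there and 2 at 0.25 h.

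Of the 10 genes with the largest gap of 0.25 h replicate 2 above both other arrays, 5 encode chemokines or cytokines, namely Cxcl1, Il1b, Cxcl2, Cxcl10 and Ccl2. The neutrophil chemokine gene Cxcl1 had 88.0, 2545 and 7.44 at 0.25 h, against 6.76 to 28.6 at 0 h. The interleukin-1 beta gene Il1b had 70.4, 922 and 90.3 at 0.25 h, against 29.9 to 60.3 at 0 h, and the monocyte chemokine gene Ccl2 had 222, 1471 and 81.5, against 29.9 to 69.1. In Il1b and Ccl2 all 3 treated arrays were above the untreated ones, and in Cxcl1 replicate 3 was within the untreated range. At 0.5 h Cxcl1 was 1876 to 2034, Il1b 790 to 919 and Ccl2 857 to 1059, so each of these genes was high in all 3 arrays of the next time. The other 5 were the calcium-binding protein gene S100a9 of neutrophils, Irf1, Gbp2, Junb and the fibrinogen chain gene Fga. Irf1, an interferon-regulated transcription factor, had 214, 1365 and 233 at 0.25 h, against 135 to 166 at 0 h. Fga was ranked here by its dimmer probe set, which had 138, 762 and 40.4 at 0.25 h, against 24.1 to 48.6 at 0 h. Its brighter probe set had 616, 1579 and 41.8 at 0.25 h, against 11.4 to 68.5 at 0 h. In both probe sets replicates 1 and 2 were above the untreated arrays and replicate 3 was among them. Of the other fibrinogen chain genes, Fgg differed by 1.76 log2 units without a call. Fgb, too dim to be tested, had 54.19, 52.65 and 31.43 at 0.25 h, against 52.03 to 68.85 at 0 h. Too dim on average to be tested, and named here after their values were seen, Il6 had 42.3, 1121 and 14.6 at 0.25 h, against 12.5 to 22.9 at 0 h, and the stress factor gene Atf3 had 54.7, 278.6 and 13.8, against 2.90 to 5.12. Not every untested immediate early or cytokine gene was high in replicate 2. Fos had 56.1, 15.6 and 9.23 at 0.25 h, against 36.9 to 55.7 at 0 h. Fosb had 11.2, 7.77 and 8.19, against 8.18 to 11.5, and Il10 differed by -0.0349. Lowest in replicate 2 by the same measure were Loxl1, Tril, Neurog1, G0s2 and Grem1, the last of which encodes an antagonist of bone morphogenetic proteins.

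**Figure D4:**
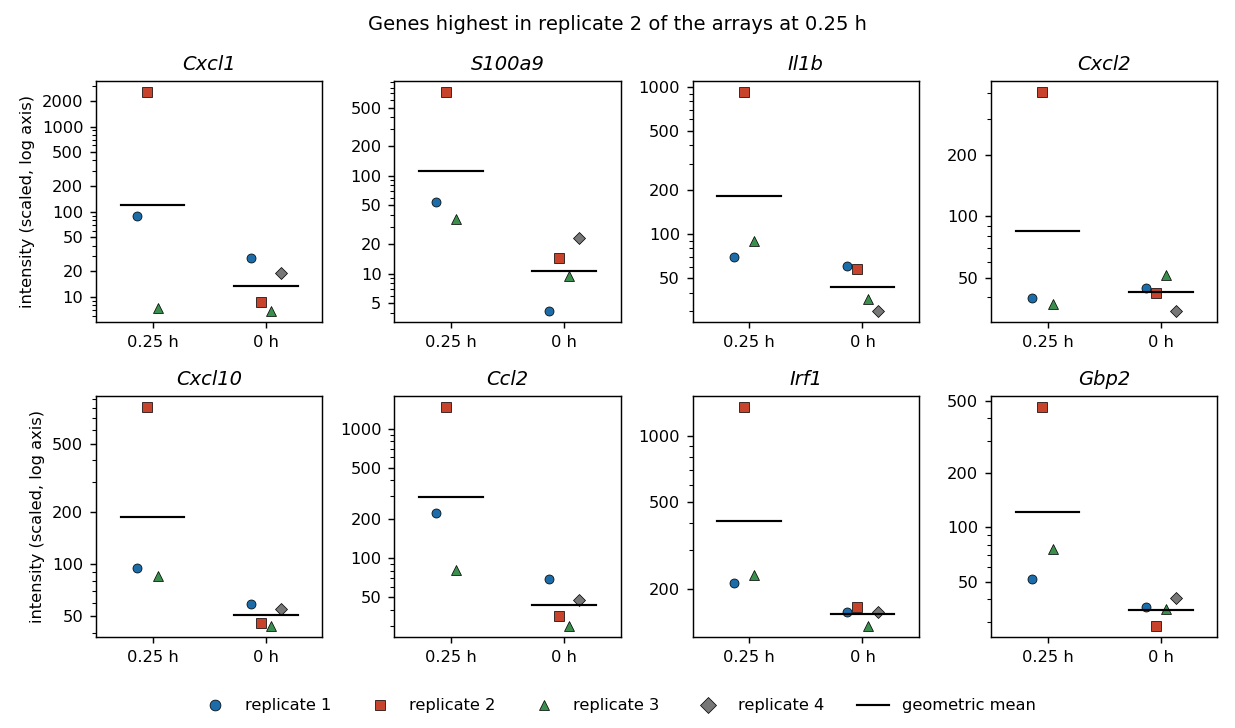
Intensity (y axis, log scale, arbitrary scaled units) of the 8 genes with the largest gap of 0.25 h replicate 2 above both other arrays, at 0.25 h (left, 3 arrays) and at 0 h (right, 4 arrays); lines are geometric means. The red square of replicate 2 stands alone at the top at 0.25 h, at 2545 for Cxcl1 and 922 for Il1b, while the other arrays lie nearer to those at 0 h.

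The same rule of size was applied to the other treated arrays. In replicate 1 the largest gaps upward were of Akr1b8, Eci1, Vnn1, Itga1, Gstp1, Cldn4, Glrx, Wsb1, Gjb2 and Ccl20. The detoxifying glutathione transferase gene Gstp1 had 2488, 886 and 376 at 0.25 h, against 907 to 1621 at 0 h, and the chemokine gene Ccl20 had 538, 220 and 47.0, against 52.2 to 150. In replicate 3 they were of B3gat1, Cxcl12, Cnga4, Dnase1, Adamts7, Zfp354a, Mapk4, Mettl17, Camk2n1 and Prps2, and the chemokine gene Cxcl12 had 326, 316 and 1081 at 0.25 h, against 281 to 660 at 0 h. Downward, replicate 1 was lowest for Grm8, RT1-Bb, Metrn, Nat8f1 and Plek, and Grm8 had 26.2, 293.5 and 424.4 at 0.25 h, against 107 to 279 at 0 h. Replicate 3 was lowest for Kif13a, Fga, Slc34a2, C19h19orf53 and Havcr1, the last of which encodes the injury marker KIM-1. Havcr1 had 613, 441 and 46.2 at 0.25 h, against 217, 59.6, 51.9 and 48.7 at 0 h, so replicates 1 and 2 were above and replicate 3 below all untreated arrays.

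Among immediate early and stress transcription factors, 25 of the 39 listed had a tested gene, 0 passed the test in either direction, and 10 had all treated arrays above all untreated ones, against 3.17% of all genes. Their median difference from 0 h was 0.52, 1.09 and 0.02 in replicates 1, 2 and 3, so it was almost nil in replicate 3, and 19 of the 25 were highest in replicate 2, where 27.5% of all genes were. The zinc finger factor gene Egr1 had 379, 2008 and 85.0 at 0.25 h, against 105, 87.5, 112 and 70.5 at 0 h (2.06 ± 0.66, adjusted p 0.409). The growth arrest gene Gadd45b had 46.3, 178 and 71.6 at 0.25 h, against 26.7, 14.8, 13.6 and 15.6 at 0 h (1.90 ± 0.55, adjusted p 0.291). Egr1 in replicate 3 was within the untreated range, whereas Gadd45b was above it in each treated array. Gadd45g differed by 1.5 log2 units (adjusted p 0.678).

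Of the NF-kappaB pathway 16 of 29 genes were tested, and 1, Nfkbia, rose, against 0.0844% of all genes, while in 3 all treated arrays lay above all untreated ones, against 3.17% of all genes. Its median difference was 0.45, with 0.22, 1.04 and 0.16 in replicates 1 to 3. Besides Irf1 (1.38 ± 0.55, adjusted p 0.637), the TNF receptor gene Tnfrsf1a had 351, 926 and 111 at 0.25 h, against 141, 170, 91.9 and 153 at 0 h. Its difference was 1.25, and 0.527 without replicate 2 or 2.01 without replicate 3 of 0.25 h. The adaptor Myd88 differed by 0.74 and the apoptosis inhibitor Birc3 by 0.71, which were 0.259 and 0.337 without replicate 2. In the main fit, with all arrays, none of these 3 genes had an adjusted p under 0.637. Of 32 cytokines, chemokines and adhesion molecules 19 were tested and 0 passed, with medians of 0.09, 1.2 and 0.28 in replicates 1 to 3, and 10 of the 19 stood more than 1 log2 unit above both other arrays in replicate 2, against 1.52% of all genes. Cxcl1, Ccl2, Il1b and Cxcl10 differed by 2.82, 2.60, 1.89 and 1.77, with adjusted p of 0.751, 0.603, 0.292 and 0.746. The STAT3 and acute-phase list, with 10 of 26 tested, had 0 calls and the largest median, 1.18, made up of 0.70, 1.89 and 0.22. Fga (3.06 in the brighter probe set and 2.10 in the other), Lcn2 (2.01), Fgg (1.76) and Cish (1.52) were its largest differences, none with an adjusted p under 0.6. For every list the filter used the mean over all 52 libraries. A gene dim at 0 h was thus tested only where it was brighter at other times, which can raise a list median. Among untested members of the STAT3 list, Fgb and Orm1 differed by -0.395 and -0.548, and Hp and Serpina3n by 0.336 and 0.645.

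Brakes on MAP kinase and receptor signalling had 11 of 22 genes tested, of which 1 rose, Errfi1, against 0.0844% of all genes, and in 5 all treated arrays lay above all untreated ones, against 3.17% of all genes. Their medians were 0.49, 1.5 and 0.51 in replicates 1 to 3, so this list stood above the median of all genes in each array. Rhob, a small GTPase, had 610, 1918 and 770 at 0.25 h, against 356, 553, 392 and 509 at 0 h (1.10 ± 0.34, adjusted p 0.364). Spry1, an inhibitor of growth factor signalling, had 173, 643 and 254 at 0.25 h, against 127, 137, 155 and 145 at 0 h (1.08 ± 0.34, adjusted p 0.419). Dusp6, the phosphatase of ERK, differed by 0.88 in its brightest probe set, 0.95 and 1.51 in the others. Of 12 tested genes for mRNA decay and translation control 1 rose, Zfp36, against 0.0844% of all genes. The mTOR inhibitor gene Ddit4 had 97.0, 141 and 350 at 0.25 h, against 61.6, 77.7, 49.3 and 90.6 at 0 h (1.23 ± 0.42, adjusted p 0.515), and Ppp1r15a differed by 0.54.

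The lists of slower or housekeeping functions had medians between -0.09 and 0.24. The circadian clock list had 0 calls of 14 and a median of -0.09; the period gene Per1 had 53, 102.5 and 80.2 at 0.25 h, against 12.9, 44.7, 13.2 and 13.1 at 0 h (1.68 ± 0.42, adjusted p 0.14), and the clock output gene Dbp differed by -0.89. Heat shock and endoplasmic reticulum chaperones had 0 of 21 (median -0.004), ribosomal proteins 0 of 25 (0.02) and gluconeogenesis and ammoniagenesis 0 of 9 (0.01). Sodium and potassium handling had 1 call of 19, Sgk1, against 0.0844% of all genes, and a median of -0.09, while the proximal sodium-proton exchanger gene Slc9a3 differed by -0.86 and Hsd11b2, whose enzyme inactivates cortisol, by -0.48. Cytochrome P450 and drug metabolism genes had 0 of 23 and a median of -0.03. Cyp2c11, a steroid hydroxylase that in rat liver is male-specific, had 64.3, 93.8 and 89.4 at 0.25 h, against 120 to 268 at 0 h (adjusted p 0.516). The sulfotransferase gene Sult1a1 had 70.3, 77.7 and 89.8 at 0.25 h, against 132 to 181 at 0 h (adjusted p 0.613). In both genes the treated arrays lay below all untreated ones, as in 3.91% of all genes. The extracellular matrix list had 1 call of 25, Ccn2, against the same 0.0844%, with a median of 0.24. Its largest difference without a call was of the osteopontin gene Spp1, with 4863, 3989 and 685 at 0.25 h, against 2218, 1026, 570 and 354 at 0 h; it was 1.52, but 0.998 without replicate 1 and 2.41 without replicate 3 of 0.25 h. The protease inhibitor gene Timp1 differed by 1.5, and by 0.941 without replicate 2. Adamts1, a secreted protease, differed by 1.07, by 0.511 without replicate 2 and by 1.67 without replicate 3. In these 3 genes replicate 3 lay within the untreated range.

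**Figure D5:**
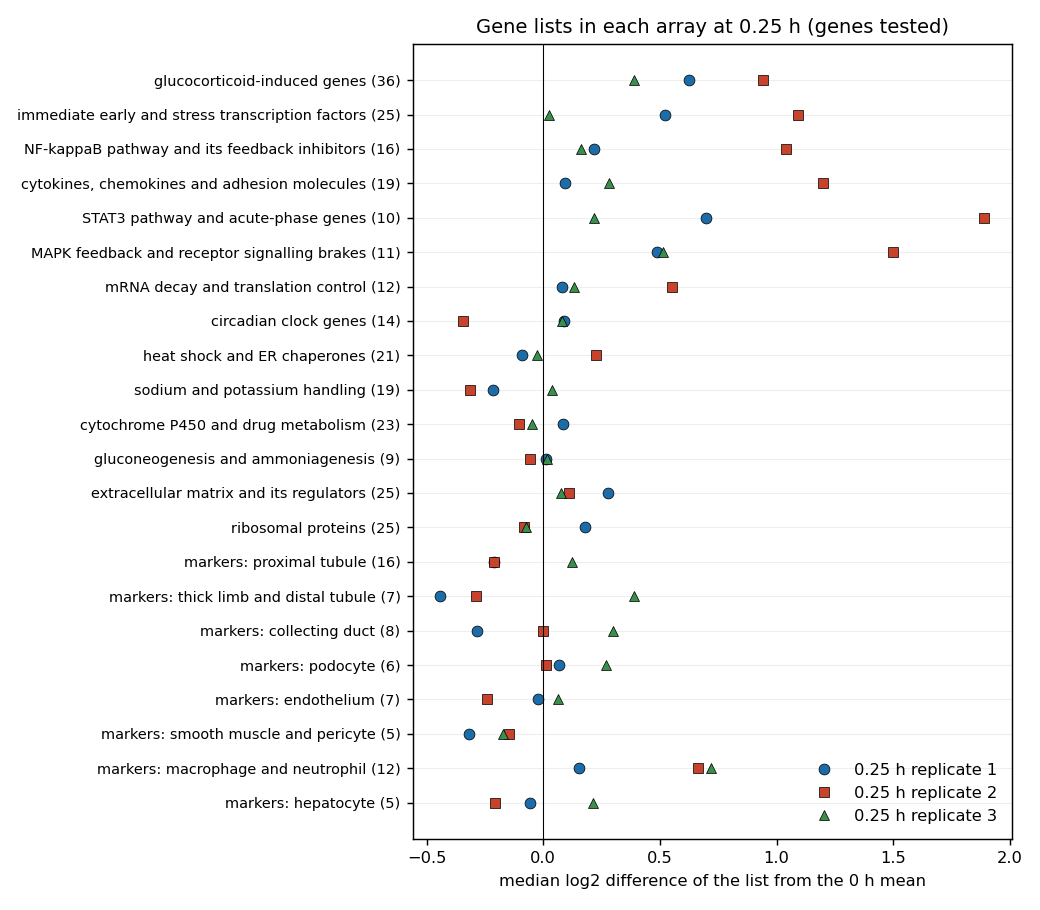
Median log2 difference from the 0 h mean (x axis) of each gene list (y axis, number of tested genes in brackets) in each of the 3 arrays at 0.25 h. The STAT3 and acute-phase, MAP kinase, cytokine, immediate early and NF-kappaB lists are highest in replicate 2, at medians of 1.89, 1.5, 1.2, 1.09 and 1.04.

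Markers of the tissue and of other cell types were read in the same arrays. All 16 proximal tubule markers were tested, and their summed intensity was 29270, 28120 and 35930 at 0.25 h, against 32340 to 35790 at 0 h. Of 16 macrophage and neutrophil markers 12 were tested, 0 passed and their median was 0.52, with 0.15, 0.66 and 0.72 in replicates 1 to 3 and summed intensities of 3780, 5821 and 4955 at 0.25 h, against 3963 to 4454 at 0 h. Among them S100a9 had 53.8, 720 and 36.8 at 0.25 h, against 4.15 to 23.1 at 0 h, while Fcgr3a, C1qa and C1qb differed by 0.82, 0.66 and 0.65. Under the alternative settings these differences ranged from 0.467 to 1.18 for Fcgr3a, 0.181 to 0.823 for C1qa and 0.105 to 0.836 for C1qb. Csf1r differed by 0.114, and Tyrobp and Cd74 were lower, by -0.195 and -0.156. The untested neutrophil gene S100a8 had 6.25, 266 and 5.96 at 0.25 h, against 0.41 to 6.39 at 0 h. Itgam, also untested, had 5.28, 9.087 and 9.797 at 0.25 h, against 5.175 to 9.482 at 0 h. S100a8 and S100a9 were thus highest in the same array as the cytokine genes, and the part of these cell markers in the result was not tested. Liver, adrenal, fat and T and B cell lists had 5 of 12, 1 of 10, 1 of 9 and 2 of 10 genes bright enough to test, and the albumin gene Alb was at 28.2 to 61.5 at 0.25 h, against 29.5 to 51.0 at 0 h. The thick limb and distal tubule markers had medians of -0.44, -0.29 and 0.39 in replicates 1 to 3, and 15 of the 19 genes of sodium and potassium handling were highest in replicate 3, where 41.1% of all genes were; the part of these markers in the result was not tested.

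Leaving replicate 2 of 0.25 h out, 6 probe sets were higher and 2 lower. The list medians were then 0.46 for glucocorticoid-induced genes (3 higher, 0 lower), 0.22 for immediate early genes, 0.17 for the NF-kappaB pathway (1 higher), 0.51 for cytokines, 0.76 for the STAT3 list and 0.55 for signalling brakes (0 higher). Each of these medians was smaller than with replicate 2 and remained above that of all genes.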

How the data were processed

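The deposited values are probe set intensities on a linear scale, made by the authors, and they were scaled array by array: the mean of each array without the lowest and highest 2% of its values is 150.03 to 150.04. The method that summarised probe brightness was not stated in the labels. The median intensity of the 7 arrays was 74.05 to 83.33, and for arrays their number limits the precision. The second array type holds no array of 0.25 h and was not used.

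Intensities were taken as log2(intensity + 7.63), the pseudocount being the 10th percentile of the table. Of 15866 probe sets that are no controls, the 9520 with a mean log2 level at or above the 40th percentile (an intensity of 52.3) entered 1 limma fit (version 3.58.1 under R 4.3.3) over the 52 libraries of the main type (35 residual degrees of freedom), with a trend and Benjamini-Hochberg adjustment; both duplicate arrays of 5 h replicate 1 were averaged. The code was tested on simulated data. With 3 arrays against 4, an exact two-sided permutation test of a single value cannot go below p = 0.0571, so none was used.

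Symbols came from the platform annotation, updated by gene identifier with a RefSeq table: 12783 probe sets had 1 symbol, 312 several and 2771 none listed. A gene with several probe sets was counted by its brightest. Promoters came from RefSeq windows of GRCr8.

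The comparison, the members and the lists were chosen with earlier results of these data known. The rule for named genes took called genes whose groups do not overlap, at most 15 in each direction; called members of each list and up to 4 others by size; at most 10 in each direction called between 0.25 and 0.5 h; and, per array at 0.25 h, the 10 genes furthest above and the 5 furthest below both other arrays. Genes named otherwise are said to be so. The alternatives were other filters, pseudocounts, quantile normalization, robust moderation, array weights, a replicate block, only the arrays of both groups, 48 and 72 h in place of 0 h, and leaving out each array.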

Additional observations from a re-analysis of the deposited data

Results flagged for a closer look

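Among the 4 arrays at 0 h, 1 array stood far from the others in 3 of 64 probe sets of named genes. This share is close to the 1 in 20 or so that chance alone gives. The gap to the nearest array, as a share of the whole range, was 0.986 for Per1, whose replicate 2 was at 44.7 against 12.9 to 13.2 in the others, 0.903 for C1qa, whose replicate 3 was at 79 against 163 to 176, and 0.83 for Slc9a3, whose replicate 1 was at 259 against 371 to 399; all 3 shares exceeded Dixon's 95% critical value for 4 samples. Groups of 3, such as the arrays at 0.25 h, were not examined in this way. Without 0 h replicate 2 Per1 passed the threshold, and without 0.25 h replicate 3 or with array weights Slc9a3 did, with the higher level at 0.25 h for Per1 and the lower for Slc9a3.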

How the results depend on the processing

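Over all named genes and alternatives, 996 values kept their direction and their side of the threshold, 49 lost a call, 31 gained one and 2 turned round. Zfp36 kept its call under all 17 alternatives, and Nfkbia, Sgk1, Depp1 and 1367960_at lost theirs only with the arrays of both groups alone. Against 0 h, the number higher was 7; it was 21 with the treated arrays of 48 and 72 h in place of 0 h, 1 with only the arrays of the 2 groups and 18 with array weights (whose estimate stopped before it converged), and 6 to 24 when 1 array was left out. The number lower was 0; it was 1 with the replicate block, 1 with the filter at the 60th percentile, 10 with 48 and 72 h, 2 with array weights, and 0 to 13 when 1 array was left out. Against 0.5 h, 4 were lower; there were 0 with the replicate block, 1 without a filter, 0 with a pseudocount of 1, 0 with only the arrays of the 2 groups, 2 with array weights and 0 to 4 when 1 array was left out, and the number higher, 0, became 0 to 2. The call without a filter, the 2 without 0.25 h replicate 1 and the 4 without 0.25 h replicate 2 include 0 of the 4. The cause of these changes was not tested, except that fewer arrays leave fewer degrees of freedom by construction. The probe set 1368041_at of Synj2bp turned to 0.0642 with 48 and 72 h, and 1370957_at of Il6st to -0.0693 without 0.25 h replicate 2 (-0.0693 to 0.79 when 1 array was left out). Deviations from the group mean in arrays of the same number correlated with r = 0.183, 0.0854 and 0.14 for numbers 1 to 3. Of the arrays at 0.25 h, 3 of 3 correlated best with the 0 h array of their own number. The labels do not say what arrays of the same number share, and this was not tested. The main fit left the numbers out, and the block gave 10 higher and 1 lower against 0 h. With 3 arrays at 0.25 h, precision is limited by the number of arrays.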
